A study of Canis lupus familiaris with 34 samples.

Results

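The genes described here are 9 genes of secreted regulators and 1 target gene of the bone morphogenetic protein (BMP) and transforming growth factor beta (TGF-beta) pathways in osteosarcoma of the dog, a malignant tumour of bone. They were chosen by symbol, not by a threshold on their values, and with earlier results of these data known: the ligand genes BMP2, BMP4, INHBA, TGFB1, TGFB2 and TGFB3, the antagonist genes GREM1, NOG and FST, and the target gene ID1, 10 genes in all. Of these 10 genes, 9 were paired with at least 1 probe set in the annotation used, and NOG was not analysed here. All 9 passed the filter on dim probe sets and were tested among 7849 genes. The 9 genes had 13 probe sets, of which 12 passed, and the probe set with the highest mean stood for each gene.

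RNA was measured on Affymetrix Canine_2 arrays, 34 in number, from 31 dogs. Cell lines labelled as derived from primary osteosarcoma took 25 arrays from 24 dogs, lines labelled as metastatic took 3 arrays from 3 dogs, and snap-frozen primary tumour tissue took 6 arrays from 6 dogs. The series set the lines against the tissues, and 2 dogs, called dogs 22 and 23 here, gave both a line and a tissue. The dogs were of several breeds, with Rottweilers (10) and Golden Retrievers (7) the most frequent among the primary lines. The metastatic lines came from 2 Rottweilers and 1 Rhodesian Ridgeback. Age labels, with a unit not given in the sources used here, ran from 2 to 11.19 for the primary lines, from 2.39 to 6.31 for the metastatic lines and from 2.67 to 11.91 for the tissues. The tissues came from 3 Golden Retrievers, 1 Great Pyrenees, 1 Belgian tervuren and 1 Borzoi. No genotype or agent was given for any culture. The dogs' treatment labels, which the series leaves unexplained, were SOC (with or without a note), AMP, PALL, ABX or none for the primary lines, PALL, SOC or none for the metastatic lines, and SOC or none for the tissues. The labels describe the cells as either fresh tumour cells or cultured ones that had been frozen, without saying which array held which, and give no passage numbers.

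BMPs, TGF-betas and activins are secreted dimers that bring together type I and type II receptor kinases, which phosphorylate SMAD proteins. The BMP branch drives osteoblast differentiation and induces the ID genes, whereas the TGF-beta branch acts on matrix production, and TGF-beta is stored in bone matrix in a latent form. Gremlin and noggin bind BMPs and follistatin binds activins, so each keeps its ligands from the receptors.

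Values below are log2 of the deposited GCRMA intensity, in which a difference of 1 is 2-fold, and each gene is compared with itself only, since intensities of different probe sets are not on 1 scale. A value at or under 5 counted as dim. The mean of both line arrays stood for dog 22, so that 24 primary lines remained, numbered in accession order. Each line and each tissue came from its own dog within its group, and p-values measure the spread between these samples. The array titles began with 1 of 3 prefixes, called title prefix 1, 2 and 3, which the labels do not explain. Prefix 1 held 4 primary lines, prefix 2 held 19 primary and all 3 metastatic lines, and prefix 3 held 2 primary line arrays and all 6 tissues.

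Several samples stood apart in ways that touch these genes. Primary line 4, of title prefix 1, had a summed log2 intensity of 8 endothelial markers of 14.98, above the tissues (10.56 to 14.74) and far above the next primary line, line 7 (7.62). Lines 5 and 9 correlated at 0.979 over the genes tested, against a median of 0.890 between primary lines. Leaving out line 4, 5 or 9 changed no call of the 9 genes in primary lines against tissues. Of 7 osteoblast markers tested, 3 were called higher in the tissues and 0 in the lines. COL1A1 and COL1A2 were bright in every line and tissue. IBSP, a bone matrix sialoprotein, was over log2 5 in 0 of 24 primary lines and 6 of 6 tissues. ALPL was over it in 4 lines and 6 tissues, and SPP1 in 9 and 6. RUNX2 was over it in 5 lines and 1 tissue, and BGLAP in 4 and 2. All 9 macrophage markers were called higher in the tissues, with a summed log2 intensity of 5.43 to 9.48 in the primary lines, 5.54 to 5.89 in the metastatic lines and 12.07 to 14.24 in the tissues. All 5 endothelial markers tested were also called higher in the tissues. None of the 4 T cell markers was over log2 5 on the 3 arrays that the filter needs. Single tissues exceeded it, with CD3D at 8.81 and CD2 at 7.51 in tissue 5 and CD2 at 6.06 in tissue 2. The log2 difference between the 3′ and 5′ actin probe sets, a measure of RNA integrity, was 1.42 ± 0.96 (SD, n = 24) in the primary lines, 1.74 ± 1.91 (SD, n = 3) in the metastatic lines and 2.59 ± 1.15 (SD, n = 6) in the tissues. In bulk RNA, fewer cells of a type and less RNA per cell cannot be told apart.

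**Figure D1:**
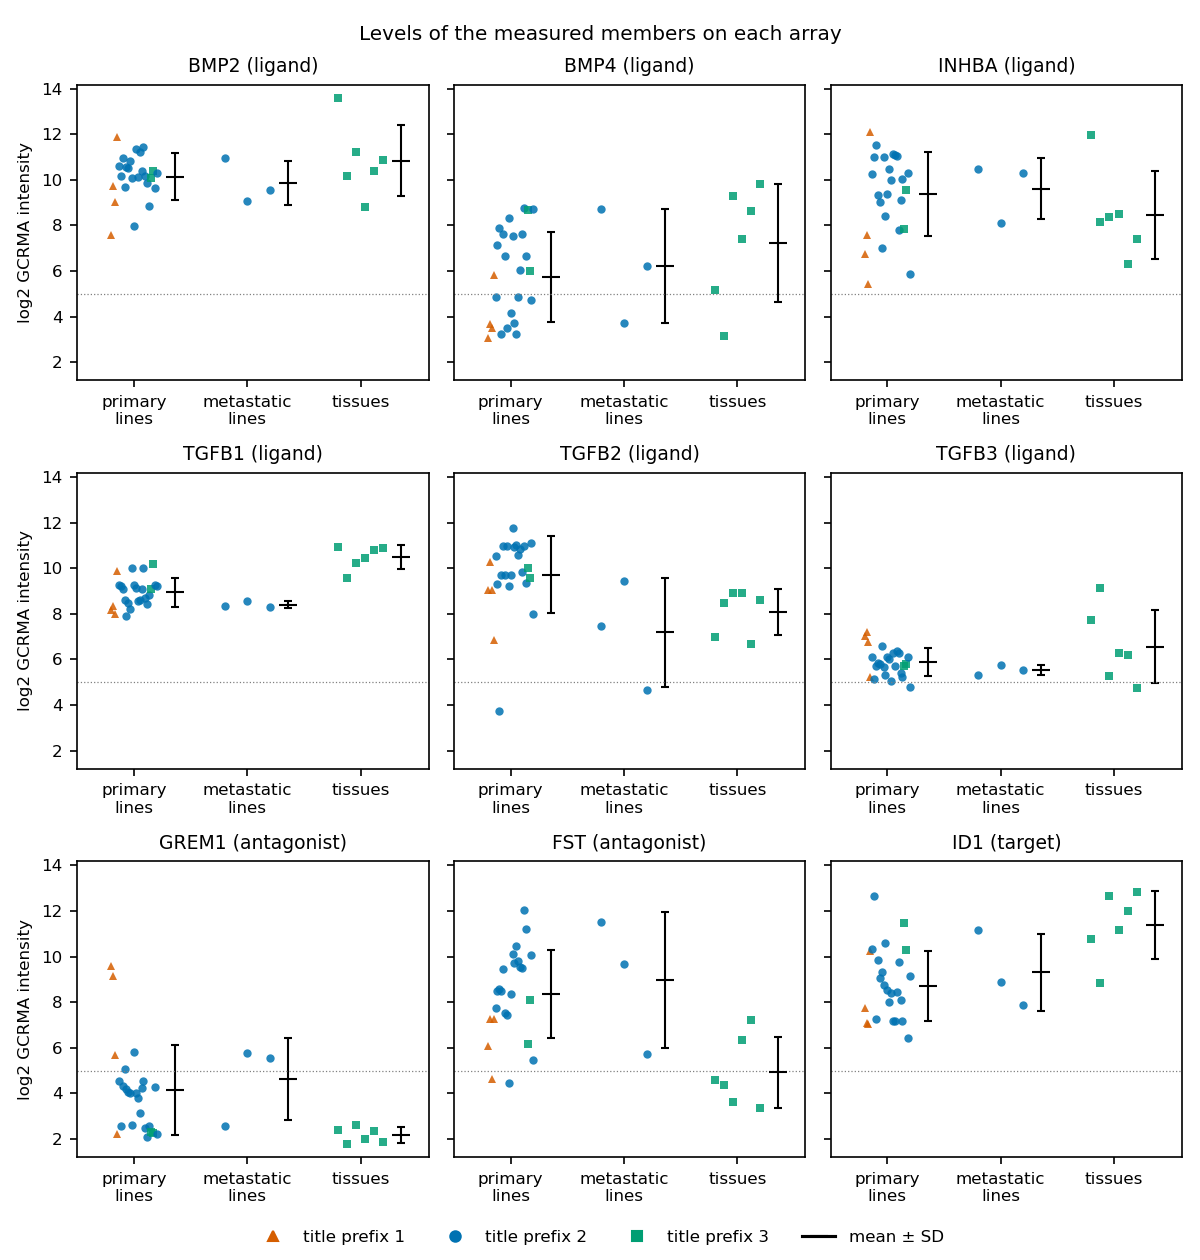
Log2 GCRMA intensity (y axis) of the 9 measured genes on each of 34 arrays, by group (x axis), with the colour and shape of a point giving the title prefix of its array; black bars are the mean ± SD of each group, with both line arrays of dog 22 drawn singly but averaged in the mean, and the dotted line is log2 5. FST lay above all 6 tissues in 20 of 24 primary lines, TGFB1 lay below all 6 tissues in 20 of 24, and GREM1 was over log2 5 in 5 of 24 primary lines and 0 of 6 tissues.

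In primary lines against tissues, the activin antagonist gene FST was higher in the lines (a log2 difference of 3.42 against tissues of which 4 of 6 were dim, so that its size is not exact), and TGFB1 (2.90-fold) and the BMP target gene ID1 (6.30-fold) were higher in the tissues. Thus 3 of 9 genes passed limma's test at an adjusted p under 0.05 with a change of at least 2-fold, where 14.6% of all genes tested did. In the lines, 1 of 9 was higher (background 5.57%), and in the tissues, 2 of 9 were higher (background 9.06%). The other 6 genes did not pass: INHBA, TGFB2 and GREM1 had higher means in the lines, and BMP2, BMP4 and TGFB3 in the tissues. The median difference of all genes was -0.05. For none of the 9 genes were the 24 lines and the 6 tissues fully separated, which 1.54% of all genes were. All 3 calls held when any single line or tissue was left out, but none was made when the comparison was kept to title prefix 3, which held only 2 line arrays beside the 6 tissues.

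Among the ligand genes, TGFB1, which encodes the TGF-beta most abundant in bone matrix, had an SD between lines near that of the median gene. It ranged from 7.90 through a median of 8.98 to 10.16 in the primary lines. In the tissues it read 10.94, 9.55, 10.24, 10.46, 10.80 and 10.89, so that 5 of 6 tissues lay above every primary line and 20 of 24 lines lay below every tissue. The means were 8.94 ± 0.64 (SD, n = 24) and 10.48 ± 0.53 (SD, n = 6), a log2 difference of -1.54 (SE 0.27, limma adjusted p = 9.21e-05). The 4 lines that reached into the range of the tissues were line 4 at 9.88, lines 12 and 18 at 10.01 each and line 23 at 10.16. Lines 4 and 23 belong to title prefixes 1 and 3. Within title prefix 3 the difference was -0.86 (adjusted p = 0.329), and a fit that adjusted for title prefix gave an adjusted p of 0.269. The macrophage markers given above moved with TGFB1 between the groups. Of the 9 macrophage markers, CD14, LYZ and CD68 exceeded log2 5 in 1, 1 and 3 of 24 primary lines and the other 6 in 0. TGFB1 exceeded it in 24 of 24. Among tissues 1 to 6 the summed macrophage log2 intensity was 13.84, 13.43, 13.17, 12.11, 14.24 and 12.07. The part of these markers in the difference of TGFB1 between lines and tissues was not tested.

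TGFB2, a second isoform of the same ligand, had its mean on the other side. It read 3.74 in line 7, the lowest, with a median of 9.82 and a highest value of 11.74 in line 14. The 6 tissues read 6.97, 8.47, 8.92, 8.90, 6.68 and 8.59. Thus 21 of 24 primary lines lay above every tissue, and the exceptions were line 4 (6.86), line 7 (3.74) and line 25 (7.99). The means were 9.71 ± 1.69 (SD, n = 24) and 8.09 ± 1.00 (SD, n = 6), a difference of 1.63 (SE 0.73, adjusted p = 0.104) that did not pass. Without line 7 the adjusted p was 0.0124 and TGFB2 was called, at a difference of 1.89. Its other probe set gave 1.18 (adjusted p = 0.118), and within title prefix 3 the difference was 1.69 (adjusted p = 0.208).

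TGFB3, the remaining TGF-beta isoform, was low and even in the lines by the probe set that stood for it. Its values ran from 4.78 through a median of 5.83 to 7.21 in the primary lines. The tissues spread more widely, at 7.73, 9.14, 5.29, 6.27, 6.21 and 4.74, and tissues 1 and 2 lay above every primary line. The difference between the means of 5.88 ± 0.63 (SD, n = 24) and 6.56 ± 1.62 (SD, n = 6) was -0.68 (SE 0.38, adjusted p = 0.206) and did not pass. A second probe set was less even in the lines (4.65 ± 1.16, SD, n = 24, from 2.67 to 7.21) and differed by -1.71. It was called when the probe set with the largest interquartile range stood for each gene (adjusted p = 0.0421) but not when all probe sets were tested together (adjusted p = 0.0564). The remaining TGFB3 probe set was dim on every array.

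INHBA, which encodes the subunit of activin A, ranged over more than 6 log2 units in the primary lines, from 5.41 in line 3 through a median of 9.76 to 12.09 in line 4. The tissues read 11.98, 8.15, 8.39, 8.50, 6.29 and 7.42, with tissue 1 far above the rest. The lines (9.38 ± 1.83, SD, n = 24) and the tissues (8.45 ± 1.91, SD, n = 6) overlapped, and the difference of 0.93 (SE 0.80, adjusted p = 0.429) did not pass.

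BMP2, an osteogenic ligand, was bright in every sample. It ran from 7.59 in line 1 through a median of 10.23 to 11.89 in line 4, with tissues at 13.59, 10.18, 11.21, 8.82, 10.41 and 10.86. Tissue 1 was the highest sample and the only tissue above every line. The difference was -0.71 (SE 0.50, adjusted p = 0.324), and it was -0.16 without tissue 1. The other BMP2 probe set gave -1.20 (adjusted p = 0.190).

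BMP4, the ligand most like BMP2, was spread over a range that reached from dim to bright. It was over log2 5 in 13 of 24 primary lines and 5 of 6 tissues. The lines ran from 3.07 in line 1 through a median of 5.92 to 8.76 in line 20, and the tissues read 5.17, 3.17, 9.27, 7.41, 8.62 and 9.80. The difference of -1.49 (SE 0.93, adjusted p = 0.259) did not pass, and within title prefix 3 it was 0.09.

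Among the antagonist genes, FST, which encodes the activin-binding protein follistatin, was over log2 5 in 22 of 24 primary lines and 2 of 6 tissues. Its values ran from 4.45 in line 12 through a median of 8.42 to 12.04 in line 20, and the tissues read 4.60, 4.39, 3.61, 6.35, 7.21 and 3.35. Thus 20 of 24 lines lay above every tissue, and the other 4 were lines 1, 3, 12 and 25. The means were 8.34 ± 1.93 (SD, n = 24) and 4.92 ± 1.54 (SD, n = 6), a difference of 3.42 (SE 0.86, limma adjusted p = 0.00416), to which 4 dim tissues contribute. With 2 tissues over log2 5, fewer than the 3 arrays that the filter needs, FST passed the filter by way of the lines. By title prefix, the mean over primary line arrays was 6.32 ± 1.24 in prefix 1 (SD, n = 4), 8.87 ± 1.84 in prefix 2 (SD, n = 19) and 7.13 ± 1.38 in prefix 3 (SD, n = 2). Within prefix 3 the lines exceeded the tissues by 2.21 (adjusted p = 0.272), and the fit that adjusted for title prefix gave an adjusted p of 0.358. Both line arrays of dog 22 differed by 3.36 in FST, with 9.51 on the array of prefix 2 and 6.16 on that of prefix 3.

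GREM1, which encodes the BMP antagonist gremlin, was dim in most samples. It was over log2 5 in 5 of 24 primary lines: line 1 (9.59), line 2 (9.16), line 3 (5.67), line 13 (5.83) and line 8 (5.09). The first 3 of these were 3 of the 4 lines of title prefix 1, whose remaining line, line 4, read 2.20. The tissues were all dim, at 2.41, 1.79, 2.61, 2.00, 2.37 and 1.86. The means were 4.14 ± 1.96 (SD, n = 24) and 2.17 ± 0.34 (SD, n = 6), and the difference of 1.97 (SE 0.78, adjusted p = 0.0660) did not pass. GREM1 passed the filter through lines alone, and the size of a difference from dim tissues is not exact. Without the 4 lines of prefix 1, an alternative chosen after seeing the data, the difference was smaller, 1.47, and passed (limma adjusted p = 0.0254). Of the primary lines over log2 5, lines 8 and 13 then remained, so this call compares mostly dim values. The SD over the 19 primary line arrays of prefix 2 was 1.05. Within prefix 3, both line arrays were also dim, and the difference was 0.11.

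ID1, a helix-loop-helix inhibitor of differentiation that BMP signalling through SMADs induces, ran from 6.42 in line 24 through a median of 8.48 to 12.68 in line 6. The tissues read 10.76, 8.83, 12.67, 11.16, 12.02 and 12.85. Line 6 reached the level of the highest tissues, tissue 2 fell among the lines, and 14 of 24 lines lay below every tissue. The means were 8.73 ± 1.53 (SD, n = 24) and 11.38 ± 1.49 (SD, n = 6), a difference of -2.65 (SE 0.68, limma adjusted p = 0.00452). The 2 primary line arrays of title prefix 3 read 11.45 and 10.30, higher than most lines of the other prefixes, and within this prefix the difference was -0.51 (adjusted p = 0.807). The fit that adjusted for title prefix gave an adjusted p of 0.832. Both line arrays of dog 22 differed by 1.71 in ID1, with 9.74 on the array of prefix 2. The endothelial markers tested moved with ID1 between the groups, and so did the 9 macrophage markers and the osteoblast markers ALPL, IBSP and SPP1. Among tissues 1 to 6 the summed endothelial log2 intensity was 14.74, 13.54, 11.94, 10.56, 11.29 and 10.83, so that the tissues with the highest sums, 1 and 2, had the lowest ID1. Line 4, with a sum of 14.98, had ID1 at 10.23. The summed osteoblast log2 intensity of tissues 1 to 6 was 15.60, 15.70, 16.25, 15.43, 15.50 and 16.23. It was highest in tissues 3 and 6, which had the highest ID1, while tissue 2, with the lowest ID1, came next. The part of these markers in the difference was not tested.

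**Figure D2:**
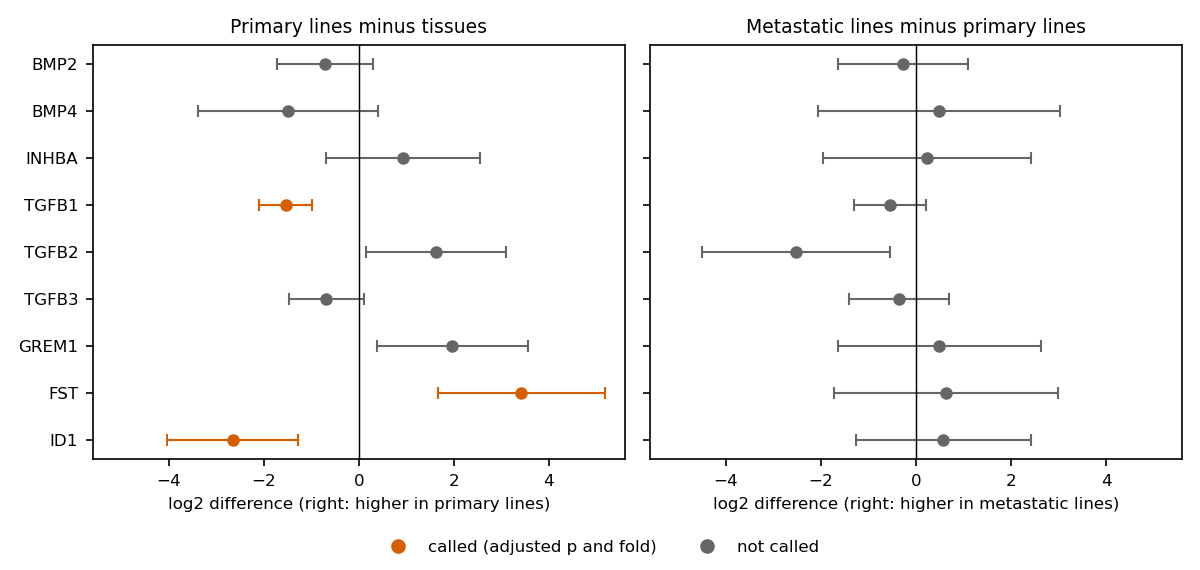
Log2 difference (x axis) of each of the 9 genes (y axis) for primary lines minus tissues (left, 24 lines and 6 tissues) and metastatic minus primary lines (right, 3 and 24 lines); points are limma estimates, bars are 95% confidence intervals, and orange marks a gene that was called. TGFB1, FST and ID1 were called on the left and no gene on the right, where the interval of TGFB2 alone lay off 0.

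Dogs 22 and 23 gave a line and a tissue each, which allows the same genes to be read within a dog, without a test. Both tissues were on arrays of title prefix 3. The line of dog 23 was of prefix 2 and that of dog 22 of both, so prefix and group are mixed here too. In both dogs, TGFB1 was lower in the line, with line minus tissue differences of -1.91 in dog 22 and -2.45 in dog 23. ID1 was lower too, at -1.42 and -4.77, and both line arrays of dog 22 (9.74 and 11.45) lay below its tissue (12.02). TGFB2 was higher in the line of both dogs, by 3.25 and 2.40, and INHBA by 1.54 and 1.69. FST differed by 8.68 in dog 23, whose line had the highest and whose tissue had the lowest value of all lines and tissues, but by 0.62 in dog 22. The latter averages line arrays on either side of the tissue (7.21), at 9.51 in prefix 2 and 6.16 in prefix 3, so its sign depends on the array. GREM1 was dim in both lines and both tissues. BMP2 and BMP4 were lower in both lines, at -0.29 and -1.002 for BMP2 and -0.47 and -1.04 for BMP4. For BMP4 the sign in dog 22 depends on the array too. The line read 7.64 in prefix 2 and 8.66 in prefix 3, on either side of the tissue (8.62). TGFB3 went in opposite directions, at -0.22 and 0.66, but in dog 22 its sign also depends on the array. There the line read 6.27 in prefix 2 and 5.71 in prefix 3, against 6.21 in the tissue.

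**Figure D3:**
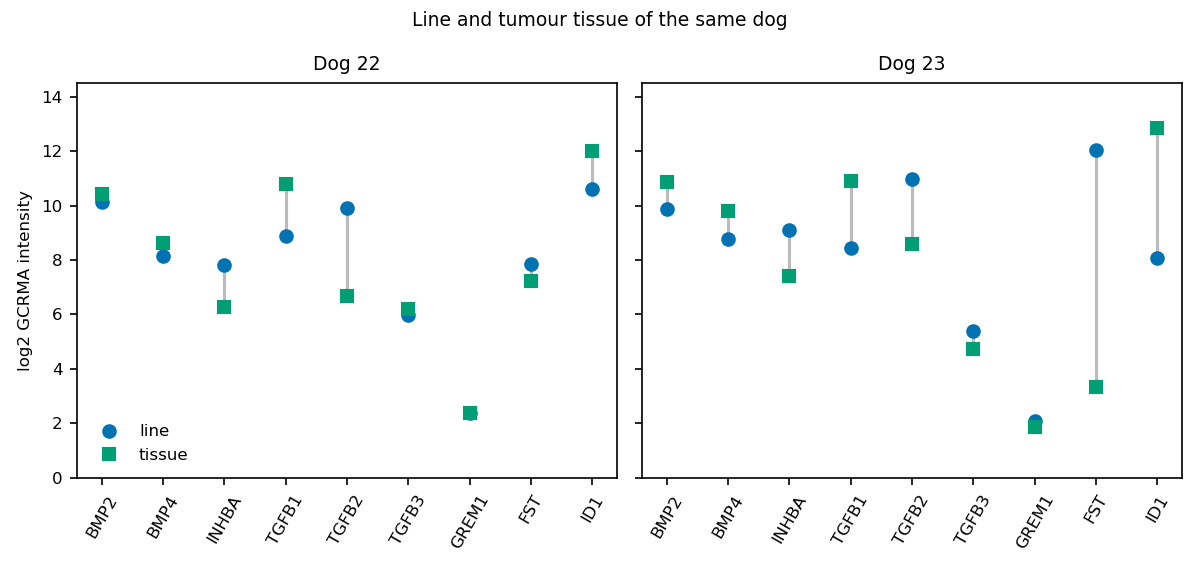
Log2 GCRMA intensity (y axis) of the 9 genes (x axis) in the line (circle) and the primary tumour tissue (square) of dog 22 (left, mean of both line arrays) and dog 23 (right). TGFB1 and ID1 were lower and TGFB2 and INHBA higher in the line of both dogs. The gap in FST was 8.68 in dog 23 and 0.62 in dog 22, whose line arrays lay on either side of the tissue.

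The metastatic lines were compared with the primary lines in the same fit, and the comparisons share samples, so values are set side by side only. In metastatic against primary lines 0 of 9 genes passed limma's adjusted p of 0.05, and 1 of 7849 genes did (0.0127%, the gene NRP1), while 533 genes had an unadjusted p under 0.05. The count over all genes was 0 without metastatic line 1 or 3, 24 without metastatic line 2, 8 without primary line 7 and 2 without tissue 2. For none of the 9 were the groups fully separated (0.0382% of all genes were). TGFB2 had the lowest unadjusted p of the 9. It read 7.48, 9.43 and 4.65 in metastatic lines 1, 2 and 3, so that all 3 lay below the primary median of 9.82 and 16 of 24 primary lines lay above all 3. The difference was -2.53 (95% confidence interval -4.51 to -0.54, limma unadjusted p = 0.0142, adjusted p = 0.598). The second TGFB2 probe set gave -1.76, and within title prefix 2, which held all 3 metastatic lines, the difference was -2.72 (adjusted p = 0.576). Leaving out 1 line at a time gave -3.65 (without metastatic line 2) to -1.26 (without metastatic line 3).

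The other genes varied in their spread over the 3 metastatic lines. TGFB1 was the most even, at 8.32, 8.57 and 8.29, with 16 of 24 primary lines above all 3, a difference of -0.55 (95% confidence interval -1.30 to 0.20). FST read 11.54, 9.68 and 5.72, and BMP4 read 8.73, 3.72 and 6.23. Metastatic line 1 was the highest of the 3 in both. Its log2 difference between the 3′ and 5′ actin probe sets was 3.95, against 0.65 and 0.63 in metastatic lines 2 and 3. Without metastatic line 1, the differences of FST, BMP4, INHBA and ID1 from the primary lines changed sign. The part of RNA integrity was not tested. ID1 read 11.16, 8.88 and 7.87, INHBA 10.47, 8.09 and 10.29, and BMP2 10.94, 9.08 and 9.56. GREM1 read 2.56, 5.77 and 5.57, low in the line where BMP4 was high, and TGFB3 read 5.30, 5.75 and 5.53. The confidence intervals were wide for FST (-1.72 to 2.99) and BMP4 (-2.06 to 3.02) and narrower for TGFB3 (-1.41 to 0.69).

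In metastatic lines against tissues 1 of 9 genes was called, beside 7.5% of all genes. This was TGFB1, for which the 3 lines and 6 tissues did not overlap (14% of all genes did not), with a difference of -2.09 (SE 0.43, limma adjusted p = 0.00127). FST differed by 4.06 (SE 1.34, adjusted p = 0.0549) and did not pass. It passed without primary line 3, 12, 20, 21 or 25, metastatic line 3 or tissue 5. In the fit that adjusted for title prefix, TGFB1 differed by -1.41 (adjusted p = 0.202).

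Within the primary lines, breed and survival labels were compared. In Rottweiler (10) against Golden Retriever (7) lines, adjusted for sex, 0 of 9 genes were called (0.0255% of all genes were, and 852 had an unadjusted p under 0.05). FST had the largest difference of the 9, at -2.13 with the lower mean in the Rottweiler lines (SE 0.95, limma unadjusted p = 0.0391, adjusted p = 0.440). ID1 differed by 1.20 (adjusted p = 0.597) and INHBA by -1.15 (adjusted p = 0.696). Over the 11 primary lines with the plain treatment label SOC, survival labels ran from 4.04 to 64.01. In limma 0 of 9 genes were called for a slope on log2 survival (0% of all genes were, and 384 had an unadjusted p under 0.05). The slopes with the largest absolute values were 0.43 for INHBA (95% confidence interval -0.51 to 1.38) and -0.42 for BMP4 (-1.43 to 0.59). A fit adjusted for title prefix gave -0.0088 for INHBA, -0.81 for BMP4 and 0.55 for GREM1, and again called 0 of 9 genes.

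The 9 genes differed in how much they varied between primary lines. The SD of BMP4 (1.97), GREM1 (1.96) and FST (1.93) stood at the 95.7th, 95.6th and 95.4th percentiles of all genes tested, and that of INHBA at the 94.4th. TGFB2 stood at the 92.8th and ID1 at the 90.6th percentile. TGFB1 and TGFB3, at the 46.6th and 44.5th percentiles, varied about as much as the median gene, while the second TGFB3 probe set had a larger SD, 1.16.

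Antagonists and target were then set against ligands across the 24 primary lines, in 11 correlations between pairs fixed by role, with permutation tests of 100000 draws and adjustment over the 11. Lines share the title prefixes, so values within prefix 2 are given too. BMP4 and its antagonist GREM1 were opposed, with a Pearson r of -0.618 (permutation adjusted p = 0.00484) and a Spearman rho of -0.612 (adjusted p = 0.0221). Within the 19 arrays of prefix 2, r was -0.598 (unadjusted permutation p = 0.00786, adjusted p = 0.0865). Without the 2 lines farthest from the median of BMP4, r was -0.544 (adjusted p = 0.0631) and no longer passed. Lines 1, 2 and 3, of prefix 1, combined GREM1 at 9.59, 9.16 and 5.67 with BMP4 at 3.07, 3.70 and 3.48, while lines 20 and 25 combined BMP4 at 8.76 and 8.72 with GREM1 at 2.10 and 2.22. Of the 24 lines, 19 had GREM1 at or below log2 5, so most lines in this relation had dim GREM1.

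INHBA and FST, the genes of activin A and of its binding protein, were correlated, with r = 0.590 (permutation adjusted p = 0.0136) and rho = 0.517 (adjusted p = 0.0582). Within prefix 2, r was 0.452 (adjusted p = 0.190), and without the 2 lines farthest from the median of INHBA it was 0.391 (adjusted p = 0.161), and neither passed. Lines 3 and 25 were low in both genes, with INHBA at 5.41 and 5.85 and FST at 4.65 and 5.45. Line 4, by contrast, had the highest INHBA, 12.09, with FST at 7.28.

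BMP2 and GREM1 gave r = -0.512 (permutation adjusted p = 0.0450) but rho = -0.289 (adjusted p = 0.220). This relation did not hold within prefix 2, where r was -0.086, nor without the 2 lines farthest from the median of BMP2, where r was -0.179. The 8 correlations of ID1 with the other genes did not pass over all 24 lines. The largest were -0.425 with GREM1, -0.399 with TGFB3 and 0.386 with TGFB1, with permutation adjusted p-values of 0.106, 0.113 and 0.113. Within prefix 2 these were -0.197, -0.192 and 0.130. After quantile normalization, ID1 and TGFB3 gave r = -0.498 over 24 lines, which passed (permutation adjusted p = 0.0432). ID1 and FST gave r = -0.295 (adjusted p = 0.221) and rho = -0.360 (adjusted p = 0.130) over 24 lines. Within prefix 2, rho was -0.749 (permutation adjusted p = 0.00418) and r was -0.534 (adjusted p = 0.108). Line 6, of prefix 2, had the highest ID1, 12.68, at a middling FST of 8.49.

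**Figure D4:**
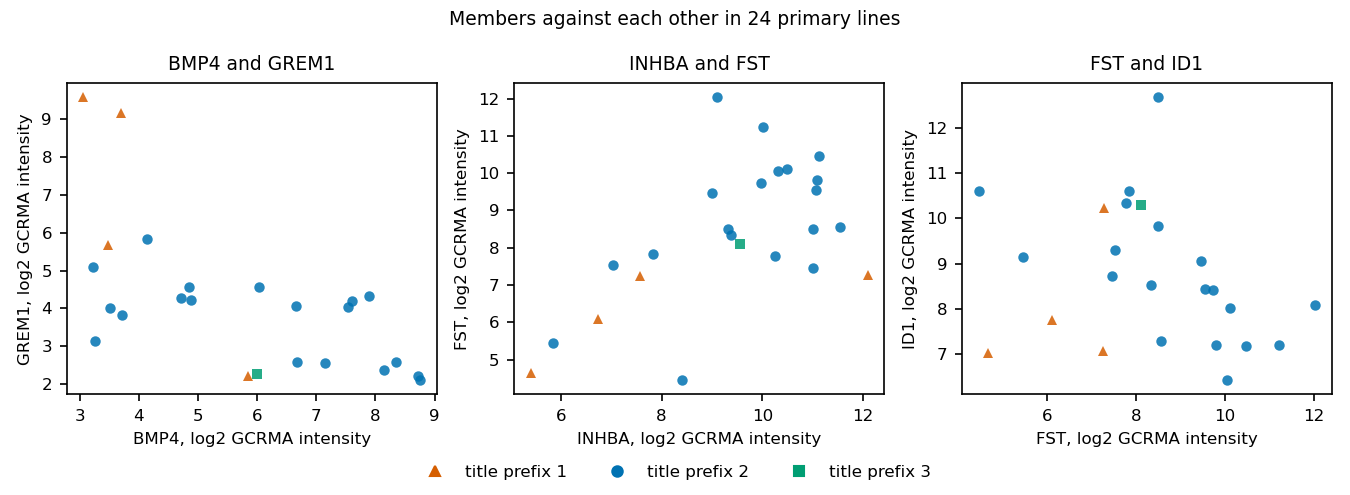
GREM1 against BMP4 (left), FST against INHBA (middle) and ID1 against FST (right), all in log2 GCRMA intensity, with 1 point for each of 24 primary lines and the colour and shape giving the title prefix (dog 22, the mean of arrays of prefixes 2 and 3, is drawn as prefix 2). GREM1 was lower where BMP4 was higher (r = -0.618) and FST was higher where INHBA was (r = 0.590) over 24 lines, and 2 lines of prefix 1 with GREM1 at 9.59 and 9.16 lie apart at low BMP4.

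For each of the 9 genes, the genes most like it were taken as those with the highest Pearson r across the 24 primary lines, a description over lines that share title prefixes. GREM1 was most like MYO9B (r = 0.899) and VAT1 (0.875), which within the 19 columns of prefix 2 fell to 0.590 and 0.700. TGFB2 was most like HAPLN1 (0.888), a link protein of hyaluronan matrix, and SFRP2 (0.865), a secreted Wnt modulator, with 0.918 and 0.894 within prefix 2. FST was most like MED13L (0.855) and TMEM59L (0.824). ID1 was most like LOC607470 (0.795) and the collagen receptor gene DDR1 (0.787), and TGFB1 was most like UTP23 (0.794) and NINJ1 (0.793). TGFB3 was most like FBXW8 (0.785) and FGFR1 (0.771), which within prefix 2 were 0.603 and 0.448. INHBA was most like UBE3A (0.739) and B4GAT1 (0.734), BMP2 like PTP4A1 (0.742) and SYTL1 (0.681), and BMP4 like the metalloproteinase gene MMP3 (0.724) and OAT (0.718). Within prefix 2, SYTL1 gave 0.4928 and PTP4A1 0.662 with BMP2, and the pairs of FST, ID1, TGFB1, INHBA and BMP4 gave 0.619 to 0.857. Among the 9 genes themselves, the highest correlation was 0.792, between TGFB3 and GREM1, the former of which was also highest in lines 1, 2 and 3 (7.05, 7.21 and 6.78).

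The rest of the pathway was read from a list of 73 other genes by role, of which 66 had a probe set and 36 passed the filter. In primary lines against tissues, 2 of 36 were called higher in the lines (5.57% of all genes were), 8 higher in the tissues (9.06% of all genes were), and 26 were not called, with a median difference of -0.21. In the fit kept to title prefix 3 and in that adjusted for it, 0 of 36 were called. In metastatic against primary lines 0 of 36 were called.

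Among 3 other ligand genes, BMP6 was higher in the tissues, 9.10 ± 1.72 (SD, n = 6) against 4.48 ± 2.25 (SD, n = 24), a difference of -4.62 (limma adjusted p = 0.000565). BMP7 (-2.01, adjusted p = 0.306) and GDF11 (0.22, adjusted p = 0.623) did not pass. Of 6 other antagonists, 1 was called in each direction. CHRDL1, a secreted BMP antagonist of the chordin family, exceeded log2 5 in 14 of 24 lines and in 0 of 6 tissues, with a difference of 3.25 (adjusted p = 0.00514). It passed the filter through the lines alone, and the size of a difference from dim tissues is not exact. BAMBI, a decoy receptor without a kinase, was higher in the tissues by a line minus tissue difference of -3.58 (adjusted p = 0.00741).

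Of 8 receptor genes, ENG, a TGF-beta coreceptor of endothelial cells, was called higher in the tissues (-2.09, adjusted p = 0.0180), and it did not pass without tissue 1 (adjusted p = 0.0506). TGFBR2, the type II receptor of TGF-beta, was bright in both groups at 11.82 ± 0.71 (SD, n = 24) and 11.17 ± 0.73 (SD, n = 6), and did not pass (0.65, adjusted p = 0.143). Among 5 genes of latency and activation, THBS1, which encodes a matrix activator of latent TGF-beta, was higher in the lines by 1.24 (adjusted p = 0.00743), and it did not pass when the probe set with the largest interquartile range stood for it. No SMAD or SMAD ubiquitin ligase gene passed, 0 of 6.

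Of 8 other target genes, 5 were called higher in the tissues (9.06% of all genes were) and 0 in the lines (5.57%). TGFBI, a TGF-beta induced matrix protein that macrophages also express, was 11.09 ± 0.76 (SD, n = 6) in the tissues and 5.11 ± 2.49 (SD, n = 24) in the lines, a difference of -5.98 (limma adjusted p = 7.77e-05). Of the BMP targets of the ID family, ID4 differed by -2.76 (adjusted p = 0.000322) and ID3 by -1.50 (adjusted p = 0.00223), the same side as ID1. SKIL (-1.46, adjusted p = 0.0152), a repressor of SMAD signalling, and the homeobox gene MSX1 (-1.13, adjusted p = 0.0264) were also called, and are named after their values were seen. Both lost the call without tissue 3 or tissue 5, and MSX1 also without tissue 1 or tissue 4, and within title prefix 3 SKIL had the higher mean in the lines (0.69). Where most lines were dim, the size of the difference is not exact. TGFBI was over log2 5 in 9 of 24 lines, ID4 in 4, SKIL in 4 and MSX1 in 8. The TGF-beta target gene CCN2 had the higher mean in the lines and did not pass (0.87, adjusted p = 0.170), nor did PMEPA1 (-0.76, adjusted p = 0.182) and MSX2 (-1.12, adjusted p = 0.249). The macrophage markers, the endothelial markers tested and the osteoblast markers ALPL, IBSP and SPP1 moved with the 5 called targets between the groups, and not with CCN2. The part of the markers in these differences was not tested.

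**Figure D5:**
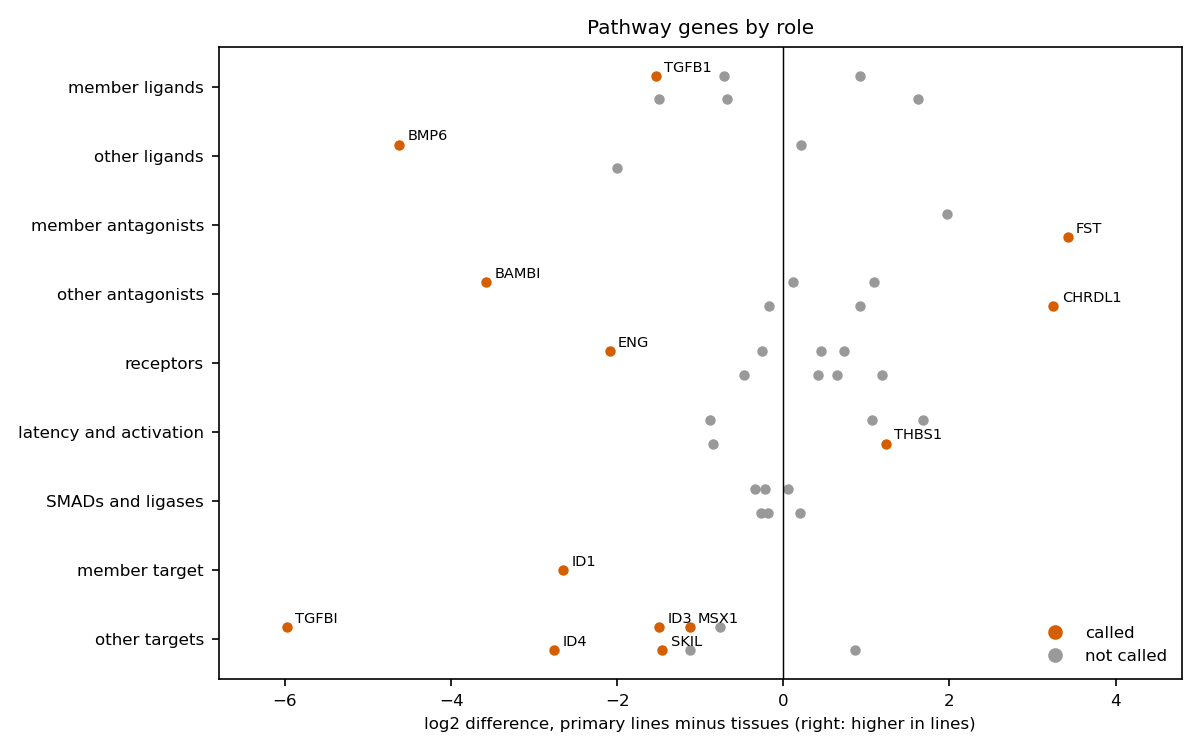
Log2 difference between primary lines and tissues (x axis, right is higher in lines) of the 9 measured genes and 36 other pathway genes, 1 point each, by role (y axis); orange marks genes that were called, with their symbols. The called target genes, ID1 and 5 others, all lie on the side of the tissues, and the called antagonists FST and CHRDL1 lie on the side of the lines and BAMBI on that of the tissues. FST and CHRDL1 were over log2 5 in 2 of 6 and 0 of 6 tissues, so both passed the filter by way of the lines.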

How the data were processed

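The values used were the intensities deposited by the authors, made with GCRMA per the submitters' processing notes, with version and settings not given in the sources used here. Their range showed that the deposited values were linear, and log2 followed a floor at 1, which altered 0 values. The platform annotation gave a single symbol to 29254 of 43035 probe sets, and 175 controls were left out. Probe sets stayed in if log2 exceeded 5 on 3 or more of 34 arrays. The 3 groups shared 1 fit in limma 3.58.1 (lmFit and eBayes, R 4.3.3), with Benjamini-Hochberg adjustment over 7849 genes, and each confidence interval is limma's. Calls needed an adjusted p under 0.05 and, against tissues, at least 2-fold. Correlations used permutations in numpy 2.4.6. Arrays have no read depth, and their number limits the precision. Tested on simulated data, the lines against tissues fit recovered 47.8%, 80.6% and 97.0% of genes changed by 1, 2 and 3 on the log2 scale, and the metastatic against primary fit 28.4%, 67.2% and 83.3%. These rates are over genes in general. No rate is given for genes that vary between lines as much as BMP4, GREM1, FST, INHBA, TGFB2 and ID1. All 10 genes were to be named whatever their values, and of other pathway genes up to 3 of each role with the largest absolute difference among those called. The genes, the pathway and marker lists and the tests were chosen with earlier results of these data known. Replicate numbers are in accession order and pair nothing. The line and tissue of dogs 22 and 23 were checked for pairing, and their deviations from the group means correlated at 0.157 and -0.175, so the dog was kept out of the main fit. Alternatives changed the filter, the probe set, the normalization, the covariates, the weights and the samples.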

Additional observations from a re-analysis of the deposited data

How the results depend on the processing

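In primary lines against tissues, TGFB1, FST and ID1 were called under every alternative except both that used the title prefix, and when any 1 sample was left out. With title prefix as a covariate, 0 of 9 genes and 493 of all genes were called, and in title prefix 3 alone 0 and 251, and both fits took the line arrays of dog 22 singly and rest on the 2 line arrays of prefix 3. Both turned BMP4 (0.088) and SKIL (0.69), and 0 of 36 other pathway genes passed in either. Array weights called 5 of 9 genes, adding TGFB2 and GREM1. The fit with the dog as a replicate block called 3 of 9 and 1153 of all genes, and it changed no call of the 9 genes.

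In metastatic against primary lines, the count over all genes was 0 with a filter at log2 7, 0 when the most variable probe set stood for each gene, 4 with array weights and 0 to 24 on leaving out 1 sample. The sign of several of the 9 differences depended on 1 sample. Leave-one-out ranges were -0.81 to 0.12 for BMP2, -0.77 to 1.74 for BMP4, -0.20 to 0.99 for INHBA, -0.082 to 1.53 for GREM1, -0.64 to 2.27 for FST and -0.35 to 1.29 for ID1. INHBA was -0.064 with array weights, -0.059 with title prefix as a covariate or in prefix 2 alone, and -0.054 without the prefix 1 lines. FST was -0.84 with array weights, and the dim TGFB3 probe set gave 0.13. The cause was not tested. In metastatic lines against tissues, the 9 genes gave 2 calls with array weights, 0 with title prefix as a covariate, 3 without the prefix 1 lines (an alternative chosen after seeing the data) and 1 to 2 on leaving out 1 sample.

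By Pearson's r, 3 of the 11 correlations passed over 24 lines, 0 in prefix 2 alone, 0 without the 2 farthest lines and 4 after quantile normalization. By rho, 1 passed over 24 lines (BMP4 with GREM1) and 1 in prefix 2 (FST with ID1). For BMP2 with ID1, r was -0.0049 in prefix 2. For INHBA with ID1, r was -0.28 in prefix 2 and -0.038 without the 2 farthest lines. Dim values limit what can be said of GREM1, of FST in the tissues and, in part, of BMP4 and TGFB3. The same holds for CHRDL1 in the tissues and for BMP6, BAMBI, TGFBI, ID4, SKIL and MSX1 in the lines.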
